A study of Cricetulus griseus with 27 samples.

Results

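Exosomes and microparticles (MPs) shed by CHO-K1 cells under osmotic stress were compared for their microRNA (miRNA) content, with 3 libraries of each vesicle type. These are 6 of the 27 libraries of the study, and they were chosen by their labels, with all 4815 miRNA entries of the count table kept. CHO-K1 is an established Chinese hamster line, derived from ovary and widely used for making therapeutic proteins. Both vesicle groups came from the same kind of culture, 15 mL of medium with 6 mM glutamine. It was shaken at 200 rpm and 37 °C in 5% CO2. At the start 60 mM NaCl was added, an extra 120 mOsm/L, and the harvest was on day 3. The labels call the 3 replicates biological. The TruSeq Small RNA kit served for all 6 libraries, which belonged to a pool of 18 that also held the osmotic cells and the cells, MPs and exosomes of an ammonia-stressed culture with 9 mM NH4Cl. The p-values of the 18-library fit rest on the spread between replicates estimated over all groups of this pool, cells included. Abundant entries were more even between replicates in the cells than in the vesicles. A standard culture was prepared with another kit and is set beside the others as values only. The sources used here do not give the method of vesicle separation.

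MPs are shed directly from the cell surface, whereas exosomes form inside endosomal compartments and are smaller, leaving the cell when these fuse with the plasma membrane. Both carry miRNAs, short RNAs that guide Argonaute proteins to partly matching messenger RNAs and lower their output. The let-7 family, whose members differ by few bases, restrains growth and represses targets such as Ras and Hmga2, and it is abundant in differentiated cells. In vesicles of human cells, miR-320a and miR-423-5p are among the miRNAs often found.

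The depth differed between the vesicle types. The MP libraries held 378397, 1103990 and 973076 counts for replicates 1, 2 and 3, and the exosome libraries held 158836, 49988 and 26516. A single count was therefore worth 0.906 to 2.64 CPM, the count scaled to a common library total, in MPs and 6.30 to 37.7 CPM in exosomes. A count of 0 in all 3 libraries allows a level of up to 1.22 CPM over the MP group and 12.7 CPM over the exosome group, counting error only. In bulk libraries, fewer vesicles and less RNA per vesicle cannot be told apart, since every level is a share of a library. Entries named for the Chinese hamster start with cgr, and mmu, rno and hsa mark mouse, rat and human names. Of 30 entries for markers of blood, muscle, liver, nerve, endothelial and miR-200-expressing epithelial cells, 1 had counts in these libraries, the erythroid miR-486-5p. It had 644, 1 and 856 counts in MPs and 4, 8 and 4 in exosomes. The summed marker level was 0.906 to 1700 CPM in MPs, 25.2 to 160 CPM in exosomes and 757 to 1430 CPM in the osmotic cells. The other 29 were at 0. The other arm of the miR-486 hairpin, cgr-miR-486-3p, was not among the 30, so these levels leave it out. It was a leading entry among those peculiar to exosome replicate 1, at 500 CPM or more there. Both other exosome libraries held 10 counts or fewer of it. The part of these cell types in the results was not tested.

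The let-7 family led every library. Its 12 entries, guide strands including miR-98, took 61.5%, 62.6% and 74.0% of the counts in MPs. In exosomes they took 42.5%, 48.3% and 42.8%. The groups did not overlap, and the means were 66.0% ± 6.91 (SD, n = 3) and 44.6% ± 3.28 (SD, n = 3). Osmotic cells were at 54.9% ± 6.50 (SD, n = 3), between the vesicle types.

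Within the family, cgr-let-7a was the entry called lower in exosomes. It took 10.7%, 10.6% and 11.05% of the counts in MPs and 2.69%, 6.36% and 5.03% in exosomes. All MP libraries were nearly alike and stood above all exosome libraries, with means of 10.8% ± 0.229 and 4.70% ± 1.86 (SD, n = 3 each), a 2.30-fold difference. It was the only entry called lower in exosomes among the 332 tested, 0.301% of them, with a log2 fold change of -1.92 ± 0.36 (SE) and an adjusted p of 0.00838 by edgeR's quasi-likelihood test with Benjamini-Hochberg adjustment. The call depended on scaling and setting. The log2 fold change was -0.49 with RLE factors, -0.17 with the authors' effective library sizes and -0.07 with TMMwsp factors, none past the threshold. The call was also lost with library size alone, without a filter on low counts and in DESeq2. It held under 13 of the 19 planned other settings. The sign was below 0 in all 21 other settings, from -2.57 to -0.07. The osmotic cells held 12.3% ± 1.23 (SD, n = 3) cgr-let-7a.

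The most abundant entry, cgr-let-7b, took 18.6%, 19.2% and 28.0% in MPs and 13.4%, 17.4% and 13.8% in exosomes. The next, mmu-let-7c-5p, took 16.4%, 17.1% and 17.9% in MPs and 12.8%, 15.9% and 12.6% in exosomes. Neither overlapped between the groups, yet neither passed the threshold in the 18-library fit, with log2 fold changes of -1.19 ± 0.35 (edgeR adjusted p = 0.0528) and -0.91 ± 0.31 (edgeR adjusted p = 0.0949). Both were called lower under 10 of 19 other settings, among them the fits of the 6 or the 12 vesicle libraries alone. Their direction rested on the scaling: under RLE, TMMwsp and the authors' sizes, and in DESeq2, both fold changes were above 0. The authors' deposited contrast had both higher in MPs than in exosomes, by log2 fold changes of 1.79 and 1.44.

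None of the remaining let-7 members was called. Entry cgr-let-7f took 6.87%, 6.84% and 6.70% in MPs and 3.09%, 3.48% and 6.60% in exosomes, where replicate 3 nearly reached the MPs (log2 fold change -1.32 ± 0.44, edgeR adjusted p = 0.0873). Entry cgr-let-7d-5p took 5.36%, 4.29% and 5.89% in MPs and 5.30%, 1.48% and 1.59% in exosomes, so exosome replicate 1 lay within the MP range (log2 fold change -1.20 ± 0.66, edgeR adjusted p = 0.229). Both fold changes turned positive under RLE, TMMwsp and the authors' sizes, and in DESeq2. Entry cgr-let-7g-5p took 2.03%, 1.82% and 2.24% in MPs and 2.45%, 2.88% and 1.96% in exosomes, overlapping. The low-level member cgr-miR-98 was at 708.3, 1351 and 1078 CPM in MPs and 88.1, 560 and 339 CPM in exosomes, without overlap. Over all tested entries the median log2 fold change was 0.00, but these include entries without a count in these libraries, whose value is 0. Of the family's 10 tested entries, 1 was called lower and none higher, and the median log2 fold change was -1.20. That median was also below 0 with library size alone (-0.59) but was 0.28 with RLE factors, 0.83 with the authors' sizes and 1.06 with TMMwsp factors. The let-7 members are near-identical, so reads could be split between them by the counting and the level of any single member is uncertain.

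**Figure D1:**
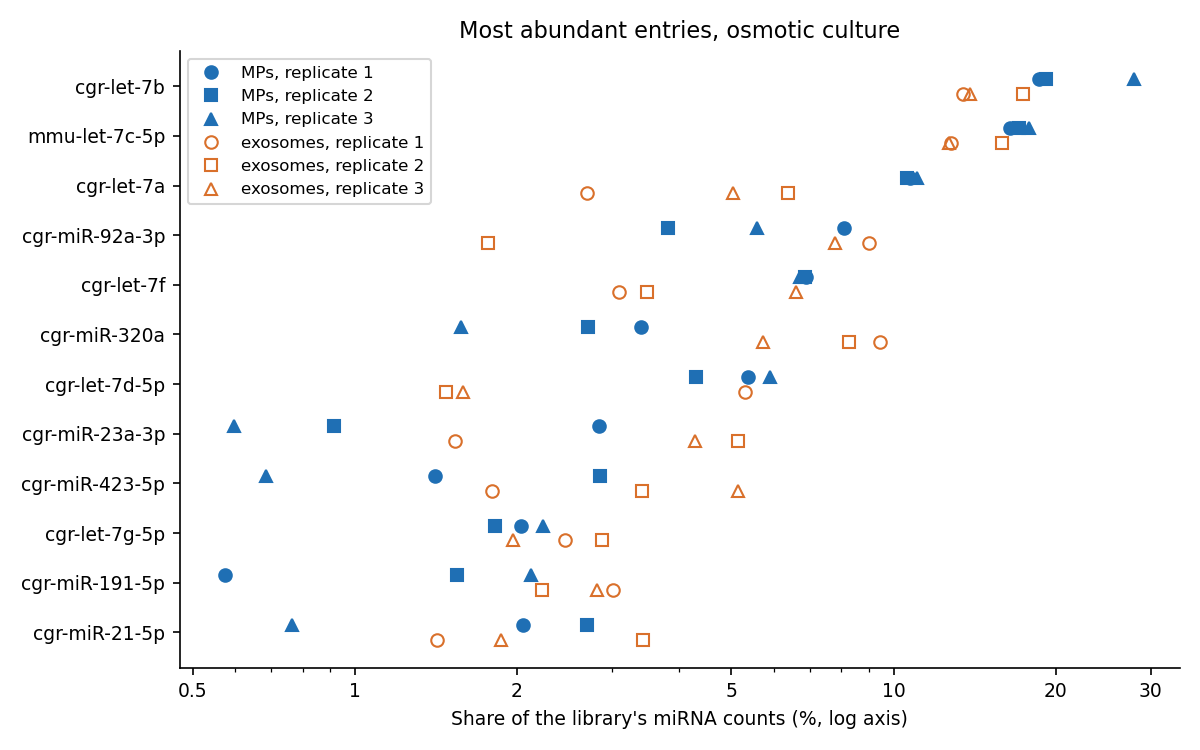
Share of each library's miRNA counts (percent, log axis) for the 12 entries that rank among the 10 most abundant in osmotic MPs (filled) or osmotic exosomes (open), with circle, square and triangle for replicates 1, 2 and 3. The MP points of cgr-let-7a sit between 10.6% and 11.05%, all above the exosome points, and those of cgr-miR-320a sit between 1.58% and 3.40%, all below them.

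Outside let-7, cgr-miR-320a was among the abundant entries that did not overlap between the groups. It is a miRNA whose precursor is made without the nuclease Drosha in mouse and human cells. It took 3.40%, 2.71% and 1.58% in MPs and 9.44%, 8.25% and 5.73% in exosomes. All exosome libraries stood above all MP libraries, and the means, 2.56% ± 0.923 and 7.81% ± 1.90 (SD, n = 3 each), differed 3.05-fold. The 18-library fit gave a log2 fold change of 1.15 ± 0.81 (edgeR adjusted p = 0.388), which did not pass the threshold. The osmotic cells held 2.78% ± 0.304 (SD, n = 3), within the range of the MPs. In a fit of the 6 libraries restricted to the 24 entries with a mean of at least 5000 CPM, an alternative chosen after seeing the data, cgr-miR-320a (log2 fold change 1.54) and cgr-let-7a (-1.30) were the 2 entries called. The fit of the 18 libraries on the same 24 entries called 0.

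Ratios of entries within a library do not depend on the scaling, and they were computed after seeing the data for 9 entries over mmu-let-7c-5p. The ratio of cgr-let-7a to mmu-let-7c-5p was 0.654, 0.62 and 0.619 in MPs and 0.211, 0.401 and 0.398 in exosomes. MPs were all higher, and the osmotic cells had 0.739 ± 0.0589 (SD, n = 3). The ratio of cgr-miR-320a to mmu-let-7c-5p was 0.207, 0.158 and 0.0882 in MPs and 0.74, 0.52 and 0.453 in exosomes, again without overlap. The cgr-let-7g-5p ratio also separated the groups, at 0.124, 0.106 and 0.125 in MPs and 0.192, 0.181 and 0.155 in exosomes. Each of these 3 ratios, and that of cgr-let-7b, gave p = 0.1 in a two-sided exact permutation test, the smallest that 3 against 3 libraries allow, and 0.225 after Benjamini-Hochberg adjustment over the 9 ratios. The other 5 ratios overlapped between the groups. With cgr-let-7b as the denominator, the ratios of cgr-let-7a, cgr-let-7g-5p and cgr-miR-320a kept their directions without overlap.

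**Figure D2:**
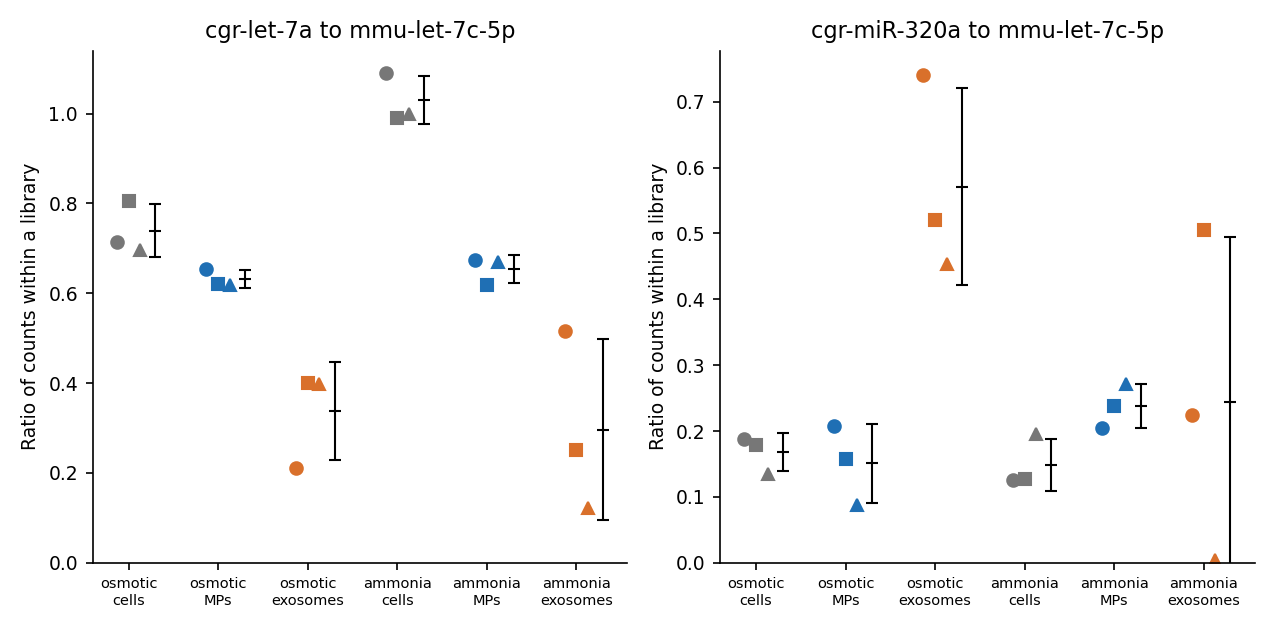
Ratio of counts within a library for cgr-let-7a (left) and cgr-miR-320a (right) over mmu-let-7c-5p, by group of the 2 stressed cultures; symbols are replicates 1 (circle), 2 (square) and 3 (triangle), bars give the mean ± SD of 3 libraries, and the bar of the ammonia exosomes is cut at 0 on the right. Osmotic exosomes sit below osmotic MPs for cgr-let-7a (0.211 to 0.401 against 0.619 to 0.654) and above them for cgr-miR-320a (0.453 to 0.74 against 0.0882 to 0.207).

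The lower cgr-let-7a was also measured in vesicles of the other cultures, which share no library with the osmotic ones. In the ammonia culture it took 12.5% ± 0.532 (SD, n = 3) in MPs and 3.93% ± 2.82 (SD, n = 3) in exosomes. It was the 1 entry called there, 0.301% of the 332 tested, with a log2 fold change of -1.83 ± 0.36 (edgeR adjusted p = 0.0153). The difference between the osmotic and ammonia contrasts was -0.10 ± 0.49 on the log2 scale (edgeR adjusted p = 1.00). In the standard culture, made with another kit, it took 2.99% ± 0.572 in MPs and 1.05% ± 0.249 in exosomes (SD, n = 3 each). The higher cgr-miR-320a was not as even: ammonia exosomes held 3.15% ± 3.15 (SD, n = 3) and ammonia MPs 4.54% ± 0.579 (SD, n = 3), and the osmotic and ammonia contrasts differed by 1.91 ± 1.14 on the log2 scale (edgeR adjusted p = 0.365). Standard exosomes held 1.18% ± 0.249 of it and standard MPs 0.416% ± 0.0258 (SD, n = 3 each). In the authors' deposited table, cgr-let-7a was higher in MPs than in exosomes by a log2 fold change of 2.52 in the osmotic, 2.53 in the ammonia and 1.63 in the standard culture.

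Other abundant miRNAs overlapped between the vesicle types or varied too much to call. The oncogenic cgr-miR-92a-3p of the miR-17~92 cluster took 8.07%, 3.81% and 5.57% in MPs and 8.99%, 1.77% and 7.79% in exosomes. Entry cgr-miR-23a-3p, made with miR-27a and miR-24 from a shared precursor, took 2.845%, 0.916% and 0.596% in MPs and 1.54%, 5.14% and 4.28% in exosomes. Entry cgr-miR-423-5p took 1.41%, 2.85% and 0.684% in MPs and 1.80%, 3.41% and 5.14% in exosomes. In each of these 3, at least 1 library of each group lay inside the range of the other. The growth-linked cgr-miR-21-5p overlapped as well, at 2.05%, 2.70% and 0.764% in MPs and 1.42%, 3.43% and 1.87% in exosomes. Entry cgr-miR-191-5p did not overlap, at 0.575%, 1.55% and 2.12% in MPs and 3.01%, 2.22% and 2.81% in exosomes, but its MP libraries differed widely and it was not called. Entry mmu-miR-30d-5p, at 0.949%, 1.15% and 0.327% in MPs and 4.06%, 1.17% and 1.64% in exosomes, did not overlap by a narrow margin (log2 fold change 1.23 ± 0.78, edgeR adjusted p = 0.312). Without exosome replicate 1 the fit, with filter and scaling computed anew, gave -0.44. The other exosome libraries still stood above all MP libraries in share.

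Summed shares of several other families did not overlap between the groups, and none passed a test, since an exact permutation test of 3 against 3 libraries cannot go under 0.1. The miR-320 family took 3.86%, 3.11% and 1.67% in MPs and 9.47%, 10.1% and 5.93% in exosomes. The miR-23/27/24 clusters took 3.46%, 2.99% and 0.597% in MPs and 4.58%, 8.38% and 5.96% in exosomes. For both families all exosome libraries stood above all MP libraries. Of the 7 tested miR-23/27/24 entries none was called, with a median log2 fold change of 2.45, and of the 4 tested miR-320 entries none was called, with a median of 0.84. The families of miR-10, miR-100 with miR-99, and miR-125, many of them encoded in Hox or let-7 clusters, went the other way, at 4.47%, 2.69% and 1.87% in MPs and 1.18%, 0.934% and 1.68% in exosomes without overlap. None of their 14 tested entries was called (median log2 fold change -2.62). Their most abundant member, cgr-miR-125a-5p, was at 12336, 14304 and 7164 CPM in MPs and 1001, 520 and 6638 CPM in exosomes, with exosome replicate 3 close to the MPs (log2 fold change -2.85 ± 1.10, edgeR adjusted p = 0.13).

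Lists tied to known roles are given beside the background of 2.41% called among all 332 tested entries, 2.11% higher and 0.301% lower. The miRNAs often linked to vesicles took 4.81%, 5.56% and 2.26% in MPs and 11.2%, 12.1% and 10.9% in exosomes, with cgr-miR-320a as the leading member, followed by cgr-miR-423-5p. None of the 4 tested entries was called, with a median log2 fold change of 4.10. That median does not describe the share, since the leading member had 1.15 and the next 0.38. The larger values came from mmu-miR-203-3p (7.05), with 1 count in the 6 libraries, and rno-miR-423-5p (7.70). The latter had 6, 192 and 2 counts in exosomes, so replicate 2 carried it. The miRNAs used or studied for engineering of CHO cells took 12.2%, 5.56% and 6.55% in MPs and 10.6%, 7.73% and 14.4% in exosomes, overlapping, and 1 of 15 tested entries, cgr-miR-7a, was called higher (median log2 fold change 1.82). The stress-linked miRNAs, led by cgr-miR-21-5p, took 2.16%, 2.70% and 1.01% in MPs and 1.42%, 3.44% and 1.88% in exosomes, with none of 6 tested entries called and a median of -0.17. In the miR-17~92 cluster and its paralogs none of 11 tested entries was called, in the miR-15/16 family none of 7, in the miR-30 family none of 5, in the miR-26 family none of 3 and in the miR-181 family none of 5. In the remaining families, those of miR-29, miR-199, miR-7 and miR-103 with miR-107 had 1 called entry each, all higher, of 3, 5, 3 and 3 tested. The group of miR-28, miR-151 and miR-708 had 2 of 8 called higher. The called members are 6 of the 7 entries described next, with cgr-miR-7a held by 2 lists, and these lists were chosen with earlier results known. None was called for miR-221 with miR-222 (4 tested), miR-148 with miR-152 (2 tested) or miR-130 with miR-301 (1 tested). Of 12 tested entries that overlap ribosomal, transfer or other RNA classes, none was called (median -0.65).

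The edgeR fit called 8 of the 332 tested entries, 2.41%, and 7 of them, 2.11%, were higher in exosomes. This balance depended on the setting: it was 32 higher and 0 lower with RLE factors, 6 and 4 with species versions summed, and 0 and 3 in the fits of the 6 or the 12 vesicle libraries alone. The authors' deposited table has 28 entries higher in exosomes and 30 higher in MPs at a false discovery rate below 0.05. These 7 were cgr-miR-7a, cgr-miR-28-3p, cgr-miR-652-3p, cgr-miR-151-3p, cgr-miR-103-3p, cgr-miR-199a-3p and mmu-miR-29a-3p. All were near 0 in every MP library, at 8 counts or fewer, and all were present in the osmotic cells, with group means from 805 to 5290 CPM. In the exosomes 5 of the 7 reached 100 counts in 1 library and 2 of the 7 in 2 libraries. The library with the highest level gave between 53.2% and 99.3% of an entry's summed exosome level, and it was replicate 1 for 2 entries, replicate 2 for 2 and replicate 3 for 3.

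The 2 entries with a high level in 2 exosome libraries were cgr-miR-7a and cgr-miR-28-3p. Counts of cgr-miR-7a, a repressor of growth factor signalling that slows CHO cell growth when overexpressed, were 0, 2 and 0 in MPs and 4, 346 and 236 in exosomes. These correspond to 0, 2 and 0 CPM and to 25, 6922 and 8900 CPM, so replicates 2 and 3 carried it. Counts of cgr-miR-28-3p were 1, 0 and 2 in MPs and 524, 196 and 4 in exosomes, so replicates 1 and 2 carried it. With so few MP counts the ratio is loose: pooled over the libraries, exosomes stood 3057-fold above MPs for cgr-miR-7a (exact 95% interval of counting error 843 to 25303) and 2518-fold for cgr-miR-28-3p (858 to 12239). Pooling weights exosome replicate 1 most, and the ratio of the group means of CPM, which weights libraries equally, was 8748 for cgr-miR-7a and 1569 for cgr-miR-28-3p. The edgeR adjusted p was 0.0227 for both, with log2 fold changes of 11.90 ± 2.67 and 10.22 ± 2.29. The exosome libraries differed widely among themselves: exosome replicate 1 for cgr-miR-7a and replicate 3 for cgr-miR-28-3p held 4 counts each.

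The other 5 called entries reached 100 counts in a single exosome library each. Counts of cgr-miR-652-3p were 0, 1 and 3 in MPs and 4, 4 and 418 in exosomes, and those of cgr-miR-103-3p, which tunes insulin signalling and lipid metabolism in mouse liver, were 1, 4 and 5 in MPs and 7, 21 and 243 in exosomes. Replicate 3 was the high exosome library in both. Counts of cgr-miR-151-3p, which lies within the focal adhesion kinase gene Ptk2, were 2, 1 and 1 in MPs and 5, 517 and 4 in exosomes, with replicate 2 high. Counts of cgr-miR-199a-3p, a miRNA of mesenchymal cells, were 1, 2 and 2 in MPs and 623, 6 and 4 in exosomes. Counts of mmu-miR-29a-3p, which represses collagen genes, were 8, 5 and 5 in MPs and 711, 15 and 5 in exosomes. Replicate 1 was the high library in both of the latter. Their log2 fold changes ran from 7.33 ± 1.93 for mmu-miR-29a-3p to 10.70 ± 2.68 for cgr-miR-652-3p, with edgeR adjusted p between 0.0357 and 0.0417. Leaving out any MP library ended the call of all 7 higher entries, and leaving out exosome replicate 1, 2 or 3 left 5, 6 and 5 of them called. The fit of the 12 stressed vesicle libraries tested all 7 and called none, and the fit of the 6 osmotic ones tested 4 of them and called none, although every fold change stayed above 0.

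**Figure D3:**
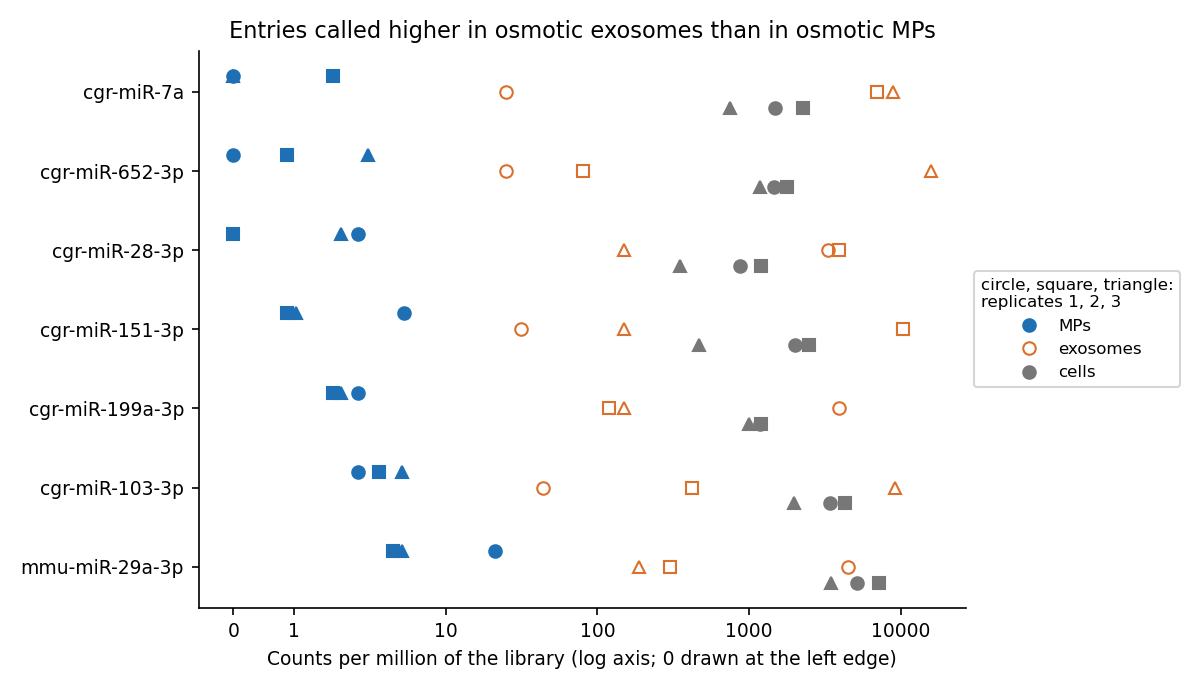
Level (CPM, log axis, with 0 drawn at the left edge) of the 7 entries called higher in osmotic exosomes, in the 3 libraries each of osmotic MPs, exosomes and cells; circle, square and triangle are replicates 1, 2 and 3. The means of the cells lie between 805 and 5290 CPM, the MPs at 0 to 21 CPM, and the exosomes spread from 25 to 15764 CPM.

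Chinese hamster genome annotation (CriGri-PICRH-1.0, RefSeq) places 4 of these entries inside 1 protein-coding gene each: cgr-miR-28-3p lies in Lpp, cgr-miR-652-3p in Tmem164, cgr-miR-151-3p in Ptk2 and cgr-miR-103-3p in Pank2. Entry cgr-miR-199a-3p matches a copy in Dnm2 and a copy in Dnm3 beside Mir214. No gene spans cgr-miR-7a there. The mouse-named mmu-miR-29a-3p was not looked up. The other arm of the miR-151 hairpin, cgr-miR-151-5p, was at 3642, 3511 and 9.25 CPM in MPs and 50.4, 600 and 264 CPM in exosomes. The groups overlapped, with MP replicate 3 below all exosome libraries, and it was not called (edgeR adjusted p = 0.117).

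Among entries short of the threshold, the same pattern of high single libraries recurred. Entry mmu-miR-222-3p, of a pair that promotes proliferation, was at 15.9, 0.906 and 1.03 CPM in MPs and 5188, 100 and 75.4 CPM in exosomes (edgeR adjusted p = 0.0523). Entry cgr-miR-27a-3p was at 13.2, 2.72 and 3.08 CPM in MPs and 37.8, 5021 and 150.9 CPM in exosomes (edgeR adjusted p = 0.0811). In both, all exosome libraries stood above the MPs and 1 library held most of the level. In the other direction, cgr-miR-23b-3p was at 0, 8295 and 1.03 CPM in MPs and 56.7, 60.0 and 113 CPM in exosomes, so the groups overlapped in spite of the MP mean.

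Entries that did not overlap between the groups were 36 of the tested ones (10.8%) higher and 8 (2.41%) lower in exosomes. A full separation of 3 against 3 libraries has a two-sided exact permutation p of 0.1. It can therefore arise without a difference between the groups. Most of these entries rested on few counts. A single count was worth more CPM in exosomes, so entries with few counts could stand higher there more easily than lower. In 7 of the 36 every exosome library held at least 10 counts: cgr-miR-320a, cgr-miR-191-5p, cgr-miR-24-3p, mmu-miR-30d-5p, mmu-miR-574-5p, mmu-miR-466i-5p and hsa-miR-3168, the last 3 named after their values were seen. In 14 of the 36 no exosome library reached 10 counts. In 6 of the 8 lower ones every MP library held at least 100 counts: cgr-let-7a, cgr-let-7b, cgr-let-7f, cgr-miR-98, mmu-let-7c-5p and cgr-miR-125a-5p. The 5 let-7 entries among them are near-identical in sequence and may share reads.

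**Figure D4:**
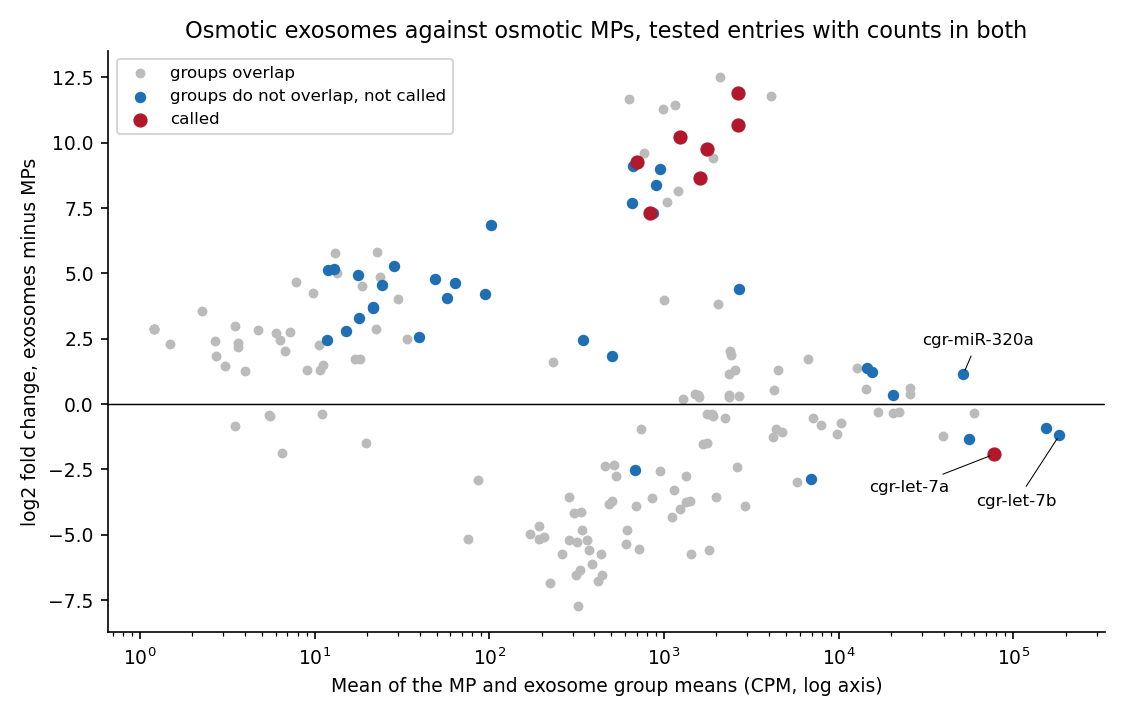
Log2 fold change (exosomes minus MPs, edgeR) against the mean of the group means (CPM, log axis) for the 176 tested entries with counts in both groups; red points are the 8 called entries and blue points the 33 that do not overlap between the groups and were not called. Apart from cgr-let-7a, the called entries have log2 fold changes of 7.33 or more.

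Some entries were present in every vesicle library. An entry with at least 500 CPM in all 3 libraries of a group was found 28 times in MPs and 23 times in exosomes, and 20 were in both sets, 71.4% of the MP set and 87.0% of the exosome set. The shared 20 took 83.8% to 90.2% of the counts in MPs and 76.2% to 83.0% in exosomes. They included 8 entries of let-7 and miR-320a, miR-92a-3p, miR-23a-3p, miR-21-5p, miR-25-3p, miR-125a-5p, miR-191-5p, miR-423-5p, miR-34b-3p, miR-30d-5p and miR-574-5p, together with the passenger strand cgr-let-7d-3p. Presence at 500 CPM did not mean an even level: over the exosome libraries cgr-miR-25-3p stood at 27850, 720.2 and 28930 CPM, and mmu-let-7i-5p at 16080, 1040 and 9730 CPM. The 3 found in exosomes alone were cgr-miR-24-3p, mmu-miR-24-3p and cgr-miR-30c-2. The 8 found in MPs alone were cgr-miR-10a-5p, cgr-miR-10b-5p, cgr-miR-1260, cgr-miR-26b-5p, cgr-miR-98, hsa-miR-320c, mmu-miR-26a-5p and mmu-miR-99b-5p. The entries of these sets are named by their membership, after their values were seen.

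Most other entries were high in some libraries of a group and lower, often at few counts, in the rest. Of the 87 entries with a mean of at least 500 CPM in osmotic MPs, 28 reached that level in 3 libraries, 22 in 2 and 37 in 1. Of the 81 in osmotic exosomes, 23 reached it in 3 libraries, 20 in 2 and 38 in 1. In MPs 24 of the 87 were at 0 in 1 or 2 libraries and in exosomes 14 of the 81. In the osmotic cells 90 of 108 such entries reached 500 CPM in all 3 libraries and none was at 0 in any. In the ammonia vesicles 57 of 82 did so in MPs and 15 of 58 in exosomes, and in the standard vesicles 91 of 97 in MPs and 92 of 97 in exosomes. Over all 6 libraries together, 55 entries reached 500 CPM in exactly 1 library, 22 in 2, 11 in 3, 11 in 4, 6 in 5 and 20 in all 6. Of the 424 library values of these entries that lay under 500 CPM, 116 were 0, 249 were 1 to 10 counts and 59 were more than 10 counts. A value of 1 to 10 counts is not near absence in the exosomes, where 1 count was worth 6.30 to 37.7 CPM.

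**Figure D5:**
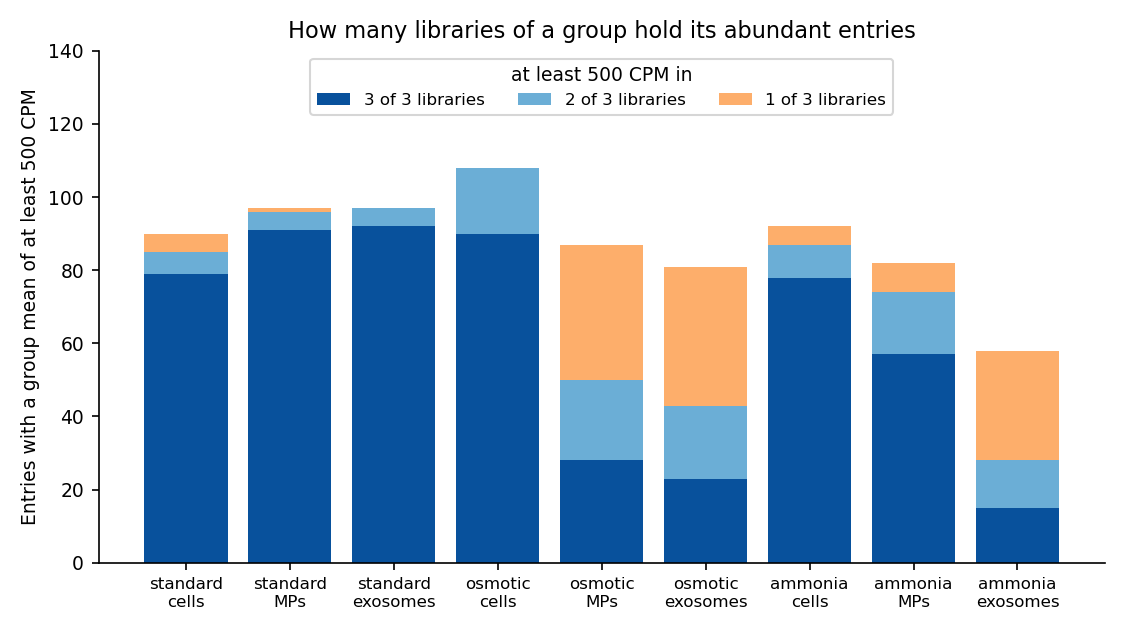
Number of entries with a group mean of at least 500 CPM in each of the 9 groups, split by whether they reached 500 CPM in 3, 2 or 1 of the 3 libraries. In osmotic MPs 28 of 87 and in osmotic exosomes 23 of 81 did so in all 3, against 90 of 108 in osmotic cells.

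The entries peculiar to single libraries can be listed by library. Replicates 1, 2 and 3 of the MPs held 11, 17 and 10 entries at 500 CPM or more that had 10 counts or fewer in both other MP libraries, 1.89%, 5.58% and 2.68% of their counts. Replicates 1, 2 and 3 of the exosomes held 12, 11 and 12, or 7.93%, 6.66% and 7.39% of their counts. Replicates 1, 2 and 3 held 12, 7 and 7 such entries in the ammonia MPs and 5, 6 and 1 in the ammonia exosomes. None was found in any cell library or standard library. The limit of 10 counts is a lower level in deeper libraries. A single count was worth 0.0964 to 0.122 CPM in the osmotic cells and 6.30 to 37.7 CPM in the osmotic exosomes. These numbers therefore cannot be compared between groups of unlike depth. In the exosomes, cgr-miR-140-3p stood at 12510 CPM in replicate 1 against 40 and 0, hsa-miR-139-5p at 11389 in replicate 3 against 0 and 60, and cgr-miR-409-3p at 6902 in replicate 2 against 0 and 75. In the MPs, cgr-miR-455-3p stood at 1937 CPM in replicate 2 and at 0 in both others.

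Some miRNAs are listed under several species names, whose reads may be split by the counting. The mouse and hamster entries of miR-24-3p together gave 6150, 12429 and 6 CPM in MPs and 30339, 27107 and 16405 CPM in exosomes, without overlap. The sum for miR-29a-3p was 621, 6 and 9 CPM in MPs and 9274, 380 and 6939 CPM in exosomes, so MP replicate 1 passed exosome replicate 2. The sum for miR-181b-5p was 21, 2861 and 3932 CPM in MPs and 69, 6982 and 15990 CPM in exosomes, and that for miR-423-5p was 14107, 28516 and 6844 CPM against 18044, 37969 and 51516 CPM, both overlapping.

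The number of entries detected overlapped at the depth sequenced, with means of 166.3 ± 21.1 in MPs and 170.3 ± 21.5 in exosomes (SD, n = 3 each, two-sided exact permutation p = 0.9). Thinned to the depth of the shallowest library, 26516 counts, the MPs gave 78.4, 79.7 and 71.5 entries and the exosomes 98.1, 160 and 149. All exosome libraries then stood above all MP libraries (exact permutation p = 0.1, the smallest possible). Without thinning, at the unequal depths sequenced, entries with at least 10 counts numbered 68, 84 and 72 in MPs and 60, 71 and 63 in exosomes, overlapping (exact permutation p = 0.2).

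The exosome-MP contrast of the osmotic culture was also tested against that of the ammonia culture, in the same fit. It differed for 28 of 332 entries, 8.43%, 26 of them toward a higher exosome level in the osmotic culture. This test holds the osmotic contrast itself, from the same libraries, so its calls are not independent of that contrast. It called the 7 entries higher in osmotic exosomes but not cgr-let-7a. In the ammonia culture those 7 stood at 216 CPM or more, and at 423 counts or more, in every MP library, and at 211 CPM or less, and 43 counts or fewer, in every exosome library. Entry cgr-miR-28-3p was at 1411, 1790 and 674 CPM in ammonia MPs and at 15, 7 and 9 CPM in ammonia exosomes, the reverse of its order in the osmotic culture. Entry mmu-miR-29a-3p was at 2247, 2379 and 1871 CPM in ammonia MPs and at 211, 7 and 51 CPM in ammonia exosomes. Of the 28 entries, 10 had a vesicle group at 0 in all 3 libraries and 9 had no osmotic vesicle library with 10 counts.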

How the data were processed

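Small RNA libraries of osmotic MPs and exosomes (3 each) were analysed within the 18 stressed libraries. The deposited values are raw counts, 1 row per mature miRNA. Reads were trimmed, limited in length and grouped on mature miRNA by the authors, per the file headers. FastQC 0.10.1, cutadapt 2.8 and the builds GRCm38, Rnor_6.0 and GRCh38 come from the submitters' processing notes, and the sources used here name no counting tool. The deposited columns named CPM are a signal the authors scaled by effective library sizes, used here for those sizes alone. CPM here is a count over the library's summed counts. The 54 columns of sample values in the authors' contrast table were not used, and its log2 fold changes were copied, with the base read as 2 from the values.

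Entries were filtered by filterByExpr, leaving 332, and tested with edgeR 4.0.16 (TMM, quasi-likelihood F test, R 4.3.3), Benjamini-Hochberg adjusted over all of them and called below 0.05, after the script was tested on simulated data. The biological coefficient of variation was 1.38. Of the 332, 78 had no count in the 6 libraries, and 85 had an unadjusted p below 0.05. Single values were tested by exact permutation (SciPy 1.17.1). Alternatives used DESeq2 1.42.0 and limma 3.58.1, other scalings, filters, samples and a replicate block. Named entries are those called in the osmotic contrast or in its difference from ammonia, the 10 most abundant of each group, the 8 largest changes each way without overlap at 500 CPM or more, list members at 1000 CPM or more, and those called in most alternative fits. Members and the lists were chosen with earlier results of these data known. Intervals and floors cover counting error only. Mature sequences were not used here.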

Additional observations from a re-analysis of the deposited data

Results flagged for a closer look

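The exosome minus MP contrast differed between the osmotic and the ammonia culture for 28 entries by the edgeR interaction test (adjusted p over 332 entries, of which 80 had an unadjusted p below 0.05). The 7 entries called higher in osmotic exosomes, whose osmotic contrast is part of this test, had the smallest values: cgr-miR-28-3p at 0.00394, and mmu-miR-29a-3p, cgr-miR-199a-3p, cgr-miR-7a, cgr-miR-103-3p, cgr-miR-652-3p and cgr-miR-151-3p at 0.00554 each. They were called under 20 to 22 of 23 other settings, and the replicate block called none.

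Among the 19 other entries with a higher osmotic difference, adjusted p was 0.00939 for mmu-miR-296-3p and 0.00985 for hsa-miR-139-5p. It was 0.0144 for cgr-miR-409-3p and 0.0225 for mmu-miR-6412, rno-miR-222-3p and rno-miR-409a-3p. It was 0.0242 for mmu-miR-709, 0.0256 for cgr-miR-340-5p, and 0.0313 for cgr-miR-140-3p and mmu-miR-106b-5p. It was 0.0336 for cgr-miR-128-3p and mmu-miR-1271-5p, 0.0369 for cgr-miR-101b-3p, 0.039 for cgr-miR-23a-5p, and 0.0406 for cgr-miR-93-3p and mmu-miR-350-3p. It was 0.0408 for rno-miR-214-3p, 0.0424 for cgr-miR-31-5p and 0.0427 for mmu-miR-214-3p.

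The 2 entries in the other direction, cgr-miR-151-5p and cgr-miR-455-3p, had an adjusted p of 0.0406 each. In ammonia exosomes cgr-miR-151-5p stood at 10662, 6032 and 34639 CPM and in ammonia MPs at 3074, 5149 and 1634 CPM, against 50, 600 and 264 CPM in osmotic exosomes. Entry cgr-miR-455-3p had counts in a single osmotic MP library. In 23 of the 28 no ammonia exosome library reached 10 counts.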

How the results depend on the processing

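The 8 calls between osmotic exosomes and MPs became 32 with RLE factors, 16 with library size alone, 23 with TMMwsp factors, 23 with the authors' sizes, 21 without a filter, 30 at a mean of at least 100 CPM, 78 in DESeq2 (129 adjusted p-values were NA) and 46 in limma voom. They became 3 in the fits of the 6 or the 12 vesicle libraries, and over abundant entries, chosen after seeing the data, 0 in 18 libraries (edgeR, 6 at an unadjusted p below 0.05) and 2 in 6 libraries. Leaving out 1 library gave 3 to 14 calls, none higher in exosomes without an MP library and 8 to 10 higher without an exosome library. The calls were all higher with the other 4 scalings, and 71 of 78 in DESeq2 and 44 of 46 in voom were higher. The median log2 fold change over all tested entries, those without a count in the vesicle libraries included, was 0.00. It moved to 0.35 with RLE factors, 0.69 with TMMwsp, 0.68 with the authors' sizes, 1.40 in DESeq2 and 3.17 in voom. Directions hold relative to these shifts. The 28 differences from the ammonia culture became 11 with TMMwsp, 11 with the authors' sizes, 54 in DESeq2 and 12 in voom, and 8 to 35 without 1 library. The cause was not tested.

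Same-numbered MPs and exosomes did not deviate together (correlations 0.00533, -0.0207 and 0.00848). This cannot decide whether they came from the same culture, since entries varied widely between single libraries. With a replicate block 1 entry, cgr-let-7a, was called, and 0 differences from ammonia (edgeR, 37 at an unadjusted p below 0.05).

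Log2 fold changes reversed with RLE, TMMwsp, the authors' sizes and DESeq2, in that order, to 0.28, 0.89, 0.68 and 0.29 for cgr-let-7b, 0.54, 1.23, 1.01 and 0.55 for mmu-let-7c-5p, 0.09, 0.65, 0.43 and 0.10 for cgr-let-7f, and 0.28, 1.39, 0.97 and 0.30 for cgr-let-7d-5p. The authors' deposited contrast had these let-7 entries higher in MPs. Without 1 library mmu-miR-30d-5p ran from -0.44 to 0.93. Differences in share without 1 library, in percentage points, ran from -0.118 to 4.68 for miR-17~92, -0.55 to 0.744 for miR-15/16, -0.33 to 0.403 for miR-26 and -0.307 to 0.704 for the stress-linked miRNAs. Over hamster entries alone the difference was -0.133 for miR-30 and -0.0488 for miR-26. At 10 counts the difference in detected entries was -10. The exosome libraries, at 26516 to 158836 counts, limit low entries most.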
